A study of Mus musculus with 20 samples.

Results

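The comparison described here is that of estradiol with vehicle after removal of the ovaries: 5 utricle libraries of the OVX + E2 group against 5 of the OVX + v group, 10 of the 20 libraries sequenced. All mice were female C57BL/6J, and both groups were ovariectomized (OVX) at 8 weeks of age. Under the skin the OVX + E2 mice carried a slow-release pellet with estradiol (50 µg, made to last 60 days) and the OVX + v mice one with vehicle. The utricle, a gravity-sensing organ of the inner ear, was taken 4 weeks after surgery, and its poly(A) RNA was read near the 3′ end (QuantSeq). The other 10 libraries, 5 of sham-operated mice with vehicle (sham + v) and 5 of ovariectomized mice given raloxifene by the same route (OVX + RAL, 2.4 mg for 60 days), are used only where named. Libraries bear the numbers of the labels, 6 to 10 for OVX + v and 11 to 15 for OVX + E2, and values are given in that order. No source states that each library is 1 animal, so p-values measure the spread between libraries, which may in part be technical. Genes with at least 10 counts in each of the 10 libraries were tested, 2601 of the 25655 listed (10.1%), and they held 72.8% to 77.0% of the counts of a library.

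Estradiol acts through the nuclear receptors ERα (*Esr1*) and ERβ (*Esr2*), which bind DNA at estrogen response elements and recruit coactivators or corepressors. The utricle carries a layer of otoconia, crystals of calcium carbonate on a protein matrix, above hair cells and supporting cells, and dark cells keep its endolymph rich in potassium. The comparison addresses which utricle genes differ when estradiol is given back to ovariectomized mice.

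The OVX + E2 libraries held fewer genes. Total counts were 1435156 to 2019032 in OVX + v and 1123053 to 1507667 in OVX + E2, so each library was also reduced by calculation to 1123053 reads. At this equal depth the OVX + v libraries held 10113, 10513, 9873, 9765 and 9909 genes with a count, and the OVX + E2 libraries 8731, 8179, 7485, 7427 and 9546. Every OVX + E2 library thus lay below every OVX + v library, and replicates 13 and 14 were lowest. The means were 8274 ± 891 against 10035 ± 296 (SD, n = 5 each; exact permutation test, two-sided, p = 0.00794, the smallest p that 5 against 5 allow, adjusted p = 0.0119 over 3 comparisons). The OVX + RAL libraries held 9869 to 10106 genes, and OVX + E2 was lower than these too (exact p = 0.00794, adjusted p = 0.0119). Sham + v libraries held 8536 to 10424, and the difference of OVX + E2 from them did not pass (exact p = 0.103, adjusted p = 0.103).

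**Figure D1:**
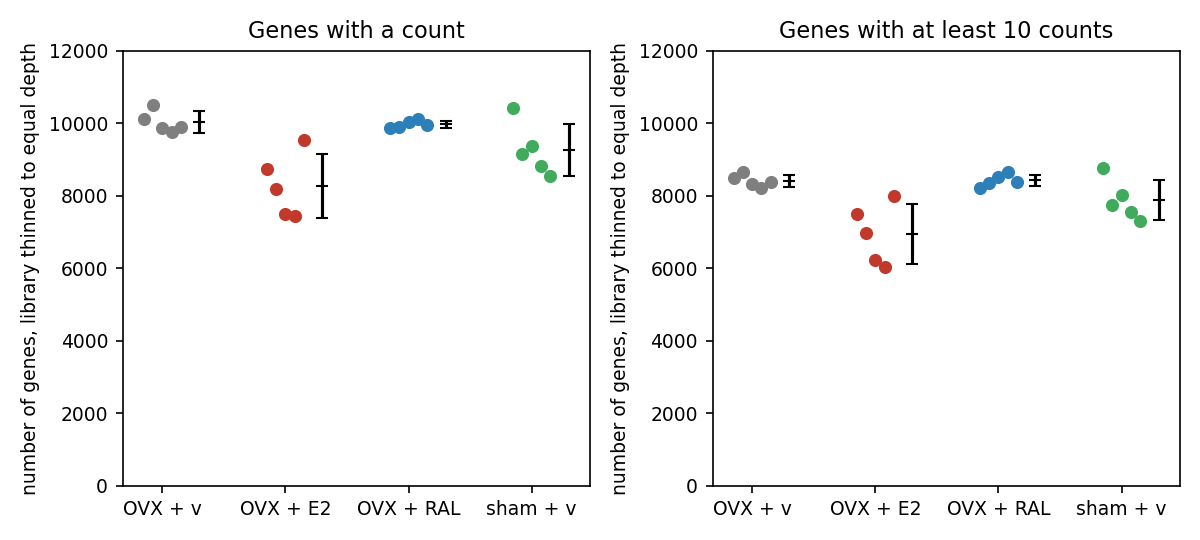
Number of genes with a count (left) and with at least 10 counts (right) in each library after reduction to 1123053 reads. Points are the 5 libraries of a group, and the bar beside them is the mean ± SD. All 5 OVX + E2 libraries lie below the OVX + v and OVX + RAL libraries in both panels.

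The same shift was seen gene by gene. At least 10 counts in each library were reached by 4954 genes in OVX + v and by 2861 in OVX + E2, and 2601 did so in both. Of the 4954, 1651 (33.3%) had no count in at least 1 OVX + E2 library, 216 in at least 3 and 10 in all 5. Of the 2861, 109 (3.81%) had no count in at least 1 OVX + v library, 3 in at least 3 and 0 in all 5. Genes taken for high counts in 1 group tend to be lower in the other, and the counts in both directions are therefore given. With each library thinned at random to 1123053 reads, the shares were 31.0% (1408 of 4544) and 4.08% (114 of 2792). The spread between libraries was also larger in OVX + E2 than in OVX + v: the median coefficient of variation over the genes tested was 48.5% in OVX + E2 and 38.4% in OVX + v, beside 45.3% in sham + v and 40.0% in OVX + RAL, and 1751 of the 2601 genes varied more in OVX + E2. Whether the lower number of genes plays a part in the differences given next was not tested.

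Among the genes tested, 1 was called, *Gm10800* (edgeR quasi-likelihood test, Benjamini-Hochberg adjusted p under 0.05; 0.0384% of 2601). *Gm10800* is a predicted gene at chr2:98496892-98497646 of GRCm39, minus strand, and no entry of that name stands in the GENCODE vM39 annotation. Its bases 269 to 502 and 503 to 736 are neighbouring copies of 1 repeat unit of 234 bases, identical at 226 positions (96.6%). They are shown because they make up much of the only gene called; where in it the reads lie was not examined. Capitals mark the 8 positions at which the copies differ.
Gm10800, chr2:98497145-98497378: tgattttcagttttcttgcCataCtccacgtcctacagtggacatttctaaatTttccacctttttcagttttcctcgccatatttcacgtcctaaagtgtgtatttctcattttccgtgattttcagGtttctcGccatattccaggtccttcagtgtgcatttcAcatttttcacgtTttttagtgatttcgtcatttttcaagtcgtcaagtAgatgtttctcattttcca
Gm10800, chr2:98496911-98497144: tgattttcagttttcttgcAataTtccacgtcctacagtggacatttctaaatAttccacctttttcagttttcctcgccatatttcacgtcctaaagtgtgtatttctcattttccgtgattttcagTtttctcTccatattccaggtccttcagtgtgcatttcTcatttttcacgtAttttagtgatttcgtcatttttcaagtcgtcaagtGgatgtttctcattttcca
Tandem repeats of this unit form the major satellite of mouse pericentromeric DNA, most of which reference assemblies leave out. Of 11 adjoining windows of 63 bases, about the length of a trimmed read, 7 occurred once in the genome and 4 had a copy outside the gene. Of these 4, 1 occurred 24 times in the genome, 1 of them in the gene, and another 32 times, 3 of them in the gene. The counts of *Gm10800* can therefore hold reads of other loci, and its level is uncertain as that of a single gene.

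*Gm10800* had a higher mean in OVX + E2 than in OVX + v. Its level was 459, 270, 164, 163 and 421 CPM (counts divided by the library's total count, scaled per 1000000) in the OVX + v libraries, and 941, 994, 1336, 1037 and 224 CPM in the OVX + E2 libraries. Replicates 11 to 14 lay above every OVX + v library, whereas replicate 15 lay within their range, so the groups overlapped. The means were 907 ± 411 against 296 ± 139 CPM (SD, n = 5), a log2 fold change of 1.62 (SE 0.315, edgeR adjusted p = 0.0150). The OVX + RAL mean was 235 ± 206 and the sham + v mean 436 ± 235 CPM. The call was lost without replicate 7 (edgeR adjusted p = 0.0801), 8 (0.151), 9 (0.209), 12 (0.0636), 13 (0.104) or 14 (0.135), and without 13 and 14 together (log2 fold change 1.28, adjusted p = 0.483). It was also lost with DESeq2 (adjusted p = 0.189), limma on log2(CPM + 1) (0.258), the default filter of edgeR (0.558) and a fit of all 4 groups (0.537).

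The remaining 2600 genes did not pass, and the next smallest adjusted p was 0.379, for *Col27a1* and *Tmco1*. Fold changes were estimated with a median SE of 0.495 on the log2 scale. Unadjusted p-values under 0.05 were found for 101 genes with higher values in OVX + E2 (3.88% of 2601) and 47 with lower values (1.81%). Log2 fold changes lay between -1.77 and 2.21, with a median of 0.07. A value above 1 was seen for 109 genes and one below -1 for 29. The filter drops genes without counts in single libraries, which were more frequent in OVX + E2. With at least 10 counts summed over the 10 libraries as the filter, 8 genes were called, 2 higher and 6 lower, and 114 did not overlap between the groups, 22 higher and 92 lower. DESeq2 and limma called 0 genes, with 170 and 144 at an unadjusted p under 0.05.

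**Figure D2:**
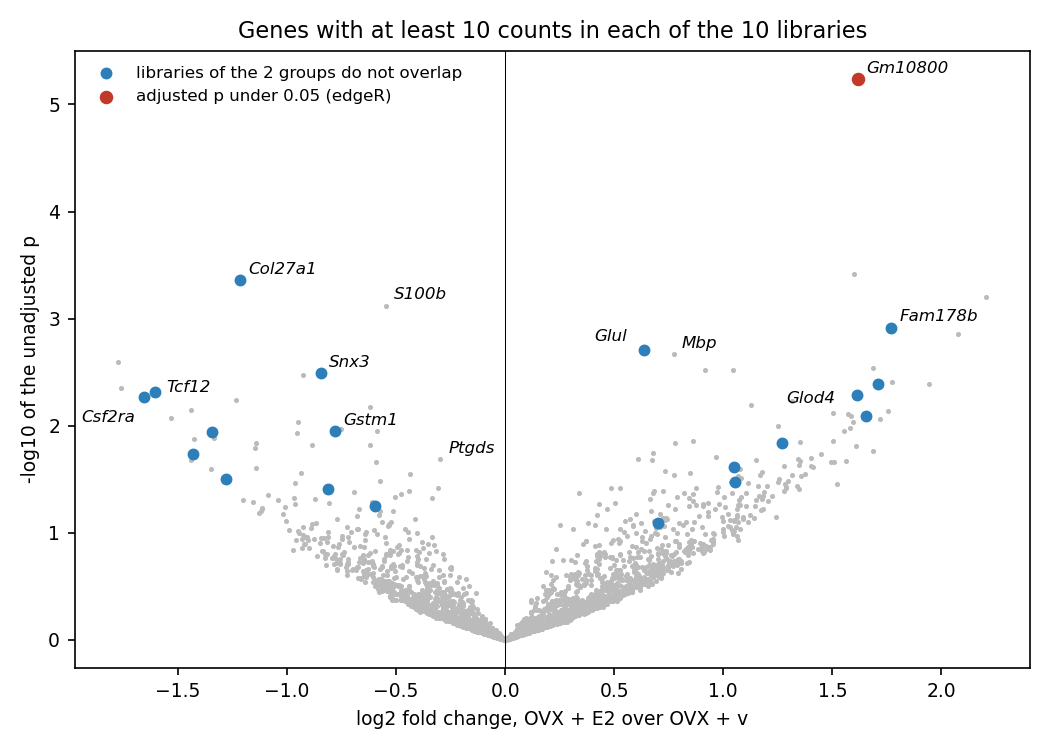
Log2 fold change of OVX + E2 over OVX + v (x axis) against −log10 of the unadjusted edgeR p (y axis) for the 2601 genes tested. The red point is Gm10800, the 1 gene with an adjusted p under 0.05, and blue points are the 19 genes whose libraries do not overlap between the groups.

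In 9 genes every OVX + E2 library lay above every OVX + v library (0.346% of 2601), and in 10 every one lay below (0.384%). These 19 genes were picked by their values, so the following levels are descriptions, and none passed the edgeR test. *Glul*, which makes glutamine from glutamate, was the most abundant of those above. It stood at 1063, 804, 906, 948 and 938 CPM in OVX + v and at 1510, 1381, 1466, 1546 and 1339 CPM in OVX + E2. The spread within each group was small (932 ± 93.0 against 1448 ± 86.7 CPM; log2 fold change 0.64, SE 0.194, adjusted p = 0.577). The OVX + RAL and sham + v means, 1242 ± 254 and 1205 ± 245 CPM, lay between these. *Glul* is at chr1:153775690-153785469 of GRCm39, and 38.8% of the windows of 63 bases at the end of its transcript are shared with the pseudogene *Glns-ps1*.

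*Glod4*, a glyoxalase domain protein, stood at 22.4, 30.7, 30.6, 68.3 and 45.3 CPM in OVX + v and at 122, 162, 121, 103 and 96.1 CPM in OVX + E2 (log2 fold change 1.61, SE 0.548, edgeR adjusted p = 0.635). Its transcript end lies wholly within that of the overlapping gene *Gemin4*, so the reads cannot be given to either with certainty. *Fam178b* had means of 47.9 ± 12.3 and 164 ± 71.6 CPM (log2 fold change 1.77, SE 0.513, adjusted p = 0.512). It was the largest fold change of the 9. *Prrg3*, a transmembrane Gla protein, stood at 33.1 ± 11 and 108 ± 42.1 CPM (log2 1.71), and *Glis2*, a zinc finger repressor, at 25.1 ± 11.9 and 79.1 ± 45.6 CPM (log2 1.65). The other four had the following log2 fold changes: *Ssr4*, of the complex that receives nascent proteins at the endoplasmic reticulum, 1.27; *Rpl29*, a ribosomal protein, 1.05; *Polr1d*, a subunit of RNA polymerases I and III, 1.05; and *Clta*, a clathrin light chain, 0.70.

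Of the 10 genes below in every OVX + E2 library, *Col27a1* had the smallest p. *Col27a1*, a fibrillar collagen of cartilage, stood at 530, 431, 569, 323 and 317 CPM in OVX + v and at 126, 192, 96.2, 282 and 238 CPM in OVX + E2. The lowest OVX + v library and the highest OVX + E2 library were close to each other. The means were 434 ± 115 and 187 ± 77.0 CPM (log2 fold change -1.22, SE 0.320, edgeR adjusted p = 0.379). The OVX + RAL mean of *Col27a1* was 201 ± 81.6 and the sham + v mean 236 ± 69.7 CPM, near that of OVX + E2. *Tcf12*, a basic helix-loop-helix factor, stood at 130, 111, 118, 112 and 129 CPM in OVX + v and at 31.2, 24.2, 44.9, 36.5 and 60.3 CPM in OVX + E2. The gap between the groups of *Tcf12* was wide beside the spread within them (log2 -1.60, SE 0.542, adjusted p = 0.632).

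*Csf2ra*, a subunit of the GM-CSF receptor, had means of 103 ± 31.0 and 32.7 ± 14.5 CPM (log2 fold change -1.66, SE 0.567, edgeR adjusted p = 0.639), the lowest log2 fold change of the 10. *Fzd2*, a Wnt receptor, stood at 159 ± 24.1 and 62.3 ± 39.9 CPM (log2 -1.35), and its OVX + RAL mean was 60.0 ± 61.5 CPM. *Psmd3*, a proteasome subunit, gave -1.43, and *Foxo3*, a factor of stress and survival genes, -1.28. *Snx3*, a sorting nexin of endosomes, stood at 510 ± 64.2 and 283 ± 64.3 CPM (log2 -0.85). *Ociad1*, a mitochondrial and endosomal protein, stood at 235 ± 17.3 and 134 ± 24.6 CPM (log2 -0.81). *Gstm1*, a glutathione transferase, stood at 462 ± 106 and 269 ± 87.0 CPM (log2 -0.78), and *Cnmd*, the cartilage protein chondromodulin, at 347 ± 86.7 and 229 ± 37.7 CPM (log2 -0.60).

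**Figure D3:**
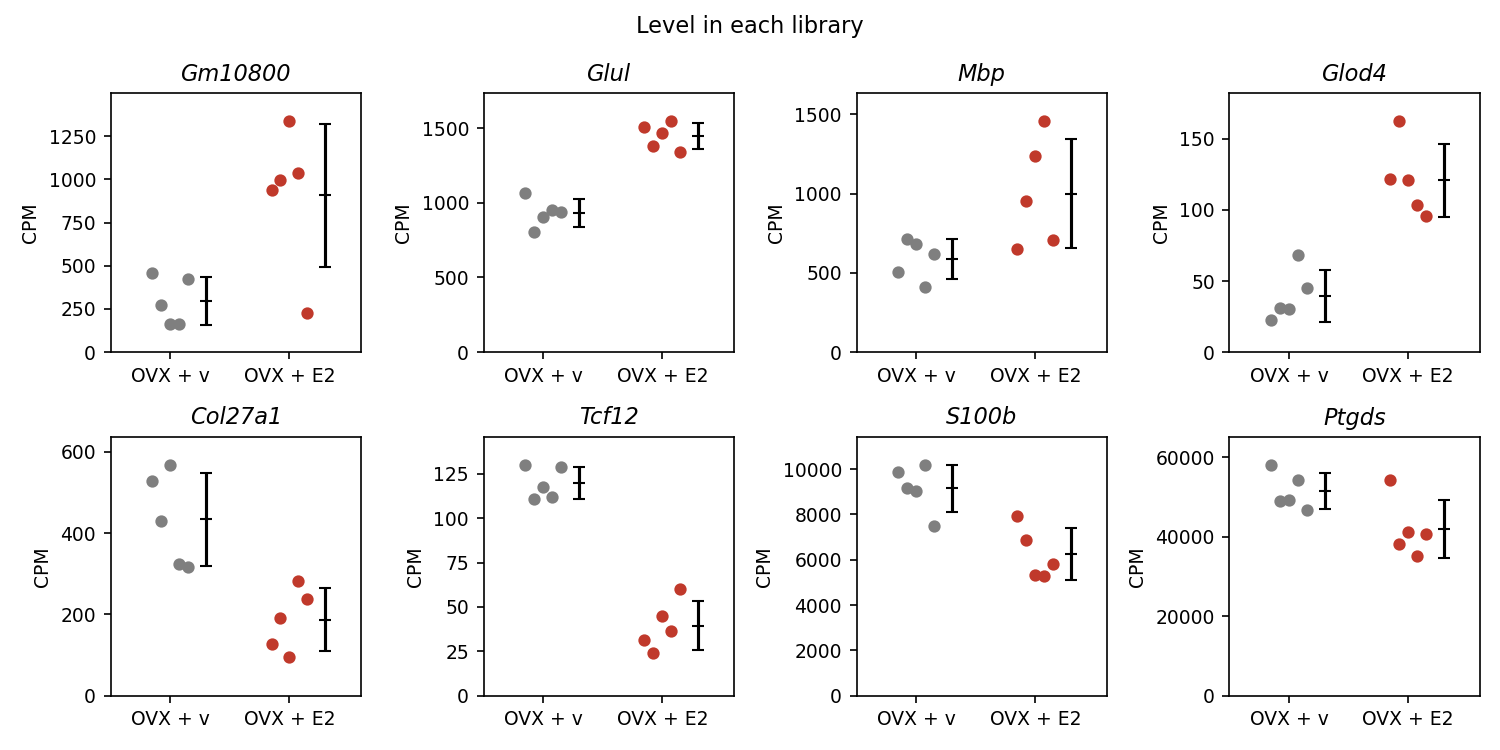
CPM of 8 genes in each library of OVX + v (grey) and OVX + E2 (red), with the mean ± SD (n = 5) beside the points and each y axis starting at 0. Glul, Glod4, Col27a1 and Tcf12 do not overlap between the groups, whereas Gm10800, Mbp, S100b and Ptgds do.

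Upstream sequence was searched for the letters at which estrogen receptors bind. The full palindrome, GGTCA and TGACC with any 3 bases between them, was found in 0 of 2600 stretches of 250 bases before the start of the canonical transcript in GENCODE vM39 (1 for each gene tested with a start, that of *Gm10800* from the deposited coordinates). One arm of it, GGTCA or TGACC on either strand, stood in 880 (33.85%) and in 5 of the 19 genes without overlap (26.3%). These were *Glul*, *Glod4*, *Psmd3*, *Foxo3* and *Snx3*. The stretch of *Glul*, the gene with the smallest p of these, is shown with the arm in capitals, 41 bases before the start of that transcript, which lies inside the span of the gene given above; a match is a description and not a site.
Glul, chr1:153776073-153776322, GRCm39, plus strand: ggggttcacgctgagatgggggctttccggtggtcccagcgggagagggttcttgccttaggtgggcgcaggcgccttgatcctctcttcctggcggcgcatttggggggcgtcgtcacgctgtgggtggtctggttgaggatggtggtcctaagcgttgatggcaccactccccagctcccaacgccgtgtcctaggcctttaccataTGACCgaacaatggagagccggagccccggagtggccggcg

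Counts of the estrogen receptors were present in some libraries of each group and 0 in others. *Esr1* stood at 0, 16.9, 0, 0 and 2.09 CPM in OVX + v and at 2.65, 0, 59.3, 0 and 11.9 CPM in OVX + E2. *Esr2* had a count in replicate 8 of OVX + v (4.54 CPM) and in replicate 14 of OVX + E2 (71.2 CPM) only. Both failed the filter. With at least 10 counts summed over the 10 libraries as the filter, neither passed (edgeR adjusted p = 1.00 for *Esr1* and 0.855 for *Esr2*). Among the 19 receptors and coregulators listed, 5 were tested, and 0 passed in either direction, 0 also at an unadjusted p under 0.05. The median log2 fold change of these 5 was 0.29, beside 0.07 over all genes tested. Corepressor *Ncor1* stood at 199 ± 31.1 in OVX + v and 193 ± 51.6 CPM in OVX + E2, and *Nrip1*, both a corepressor and a textbook estrogen target, at 27.0 ± 12.4 and 52.5 ± 27.9 CPM (log2 0.95, edgeR adjusted p = 0.955).

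Known estrogen-responsive genes did not pass either: 0 of 9 tested were called, and 7 had higher and 2 lower values with estradiol (median log2 fold change 0.30). *Mgp*, the matrix Gla protein that keeps soft tissue from calcifying, was the 1 with an unadjusted p under 0.05, at 136 ± 35.7 in OVX + v and 266 ± 134 CPM in OVX + E2 (log2 0.97, SE 0.399, edgeR adjusted p = 0.779). The chaperone *Hspb1* stood at 1626 ± 1120 and 2044 ± 1265 CPM. *Ctsd*, a lysosomal protease, stood at 317 ± 96.3 and 320 ± 91.8 CPM, and *Igfbp4*, which binds insulin-like growth factors, at 443 ± 200 and 475 ± 187 CPM. Summed over all members in the table, tested or not, the list came to 2812 to 6044 CPM in OVX + v and 3281 to 6156 CPM in OVX + E2.

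Of the proteins of the otoconia and their membrane, 9 of 20 were tested, 0 passed, and the median log2 fold change was -0.09. *Otog*, which encodes otogelin of the membrane, stood at 2315 ± 638 CPM in OVX + v and 2464 ± 520 CPM in OVX + E2 (log2 fold change 0.09, SE 0.190). *Sparcl1*, a matricellular protein, stood at 1756 ± 403 and 1646 ± 330 CPM, and *Sparc*, which binds collagen and calcium, at 1501 ± 256 and 1357 ± 435 CPM. *Otol1*, otolin of the otoconia, had means of 112 ± 79.4 and 168 ± 67.4 CPM. *Atp2b2*, the calcium pump of hair bundles, was the 1 member with an unadjusted p under 0.05, at 151 ± 23.6 and 73.4 ± 52.9 CPM (log2 -1.04, edgeR adjusted p = 0.877).

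Marker genes of the utricle's cells were present in both groups. In bulk tissue, fewer cells of a type and less RNA per cell cannot be told apart. Hair cell genes (10 tested, 0 called, 7 with higher and 3 with lower values, median log2 fold change 0.16) included *Myo6*, a motor of the hair bundle, at 362 ± 93.9 and 408 ± 101 CPM, and *Pou4f3*, a hair cell transcription factor, at 250 ± 116 and 303 ± 137 CPM. Among the lower was *Otof*, otoferlin of the hair cell synapse, at 147 ± 54.1 and 128 ± 107 CPM. Supporting cell genes (11 tested, 0 called, 8 with higher and 3 with lower values, median 0.21) included the cell cycle inhibitor *Cdkn1b*, 503 ± 55.5 and 628 ± 131 CPM, and, among the lower, the gap junction genes *Gjb6*, 730 ± 206 and 591 ± 158 CPM, and *Gjb2*, 715 ± 213 and 568 ± 227 CPM. Dark cell genes (10 tested, 0 called, median -0.03) included the potassium channel subunit *Kcne1*, 229 ± 81.5 and 227 ± 83.8 CPM. The summed hair cell list ranged from 2273 to 3518 CPM in OVX + v and from 2735 to 4289 CPM in OVX + E2.

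Fibrocyte genes (11 tested, 0 called, 5 with higher and 6 with lower values, median log2 fold change -0.09) included *Gsn*, gelsolin, at 1219 ± 194 CPM in OVX + v and 1324 ± 175 CPM in OVX + E2, and *Coch*, cochlin of the extracellular matrix, at 6457 ± 970 and 5709 ± 1281 CPM. *Otor*, otoraplin, stood at 1300 ± 129 and 864 ± 361 CPM (log2 -0.59, SE 0.223, edgeR adjusted p = 0.685). Its 5 OVX + E2 libraries held 1476, 752, 782, 512 and 797 CPM and the OVX + v libraries 1105 to 1426 CPM. Replicate 11 of OVX + E2 thus lay above all OVX + v libraries and the other four below. The collagens (7 tested, 0 called, median -0.29) held 5 lower and 2 higher values, with *Col27a1* the 1 member without overlap, beside 0.384% of all genes tested.

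Among secreted carriers of lipids and retinoids, which are also made by meninges and choroid plexus, 0 of 9 tested were called, 4 with higher and 5 with lower values (median log2 fold change -0.15). Among the higher was *Enpp2*, autotaxin, at 221 ± 54.9 CPM in OVX + v and 278 ± 115 CPM in OVX + E2. *Ptgds*, a prostaglandin D synthase that also carries lipophilic ligands, stood at 58130, 49100, 49150, 54210 and 46850 CPM in OVX + v and at 54190, 38160, 41190, 35060 and 40770 CPM in OVX + E2. Replicate 11 lay within the OVX + v range and the other OVX + E2 libraries below it (log2 -0.30, SE 0.124, edgeR adjusted p = 0.779). *Apod* stood at 10230 ± 756 and 8258 ± 1308 CPM (log2 -0.31) and *Apoe* at 5208 ± 403 and 4122 ± 1024 CPM (log2 -0.34), both apolipoproteins. *Ttr*, the thyroxine and retinol carrier transthyretin, did not reach 10 counts in replicate 13 and was not tested. It stood at 596, 671, 315, 274 and 390 CPM in OVX + v and at 162, 142, 6.41, 277 and 74.3 CPM in OVX + E2, lower but for an overlap at replicate 14. With at least 10 counts summed over the 10 libraries as the filter, *Ptgds*, *Apod*, *Ttr* and *S100b* were called lower.

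Schwann cell and myelin genes (14 tested, 0 called, median log2 fold change 0.30) held both directions. *Mbp*, myelin basic protein, stood at 503, 713, 681, 411 and 619 CPM in OVX + v and at 652, 951, 1235, 1457 and 706 CPM in OVX + E2. Replicates 12, 13 and 14 lay above the OVX + v range and the other two within it (log2 0.77, SE 0.237, edgeR adjusted p = 0.577). *S100b*, a calcium-binding protein of glia and also of cartilage, had lower values, with 9852, 9158, 9012, 10190 and 7497 CPM in OVX + v and 7937, 6870, 5342, 5300 and 5827 CPM in OVX + E2. Only replicate 11 of OVX + E2 reached into the OVX + v range. The log2 fold change of *S100b* was -0.55 (SE 0.152, edgeR adjusted p = 0.394), and without replicate 11 it was called. The summed list ranged from 12660 to 15560 CPM in OVX + v and from 10580 to 13940 CPM in OVX + E2. Its mean was 14210 and 12710 CPM, of which *S100b* alone held 9141 and 6255 CPM. The lower sum thus follows *S100b* and does not describe the other members.

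Glucocorticoid target and clock genes had the highest median of the lists, a log2 fold change of 0.68 over 10 tested beside 0.07 over all genes. Higher values were found in 9 and a lower value in 1, beside 1450 and 1151 over all genes. None of these 10 was called. An unadjusted p under 0.05 was found for 5, all with higher values, beside 3.88% of all genes. *Cdkn1a*, a brake on the cell cycle, stood at 180, 102, 31.7, 104 and 53.0 CPM in OVX + v and at 230, 359, 280, 121 and 133 CPM in OVX + E2, with an overlap at replicates 14 and 15 (log2 1.25, SE 0.466, edgeR adjusted p = 0.685). The clock repressor *Nr1d2* stood at 154 ± 47.3 and 276 ± 110 CPM (log2 0.85), and *Dbp*, a clock output factor, at 72.7 ± 21.6 and 163 ± 94.1 CPM (log2 1.16). *Ddit4*, an inhibitor of mTORC1, gave 1.26 and *Per3* 1.18. The time of day of dissection is not given in the sources used here, and its part was not tested. Summed over the list, OVX + v libraries held 1464 to 2466 CPM and OVX + E2 libraries 1946 to 2955 CPM.

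**Figure D4:**
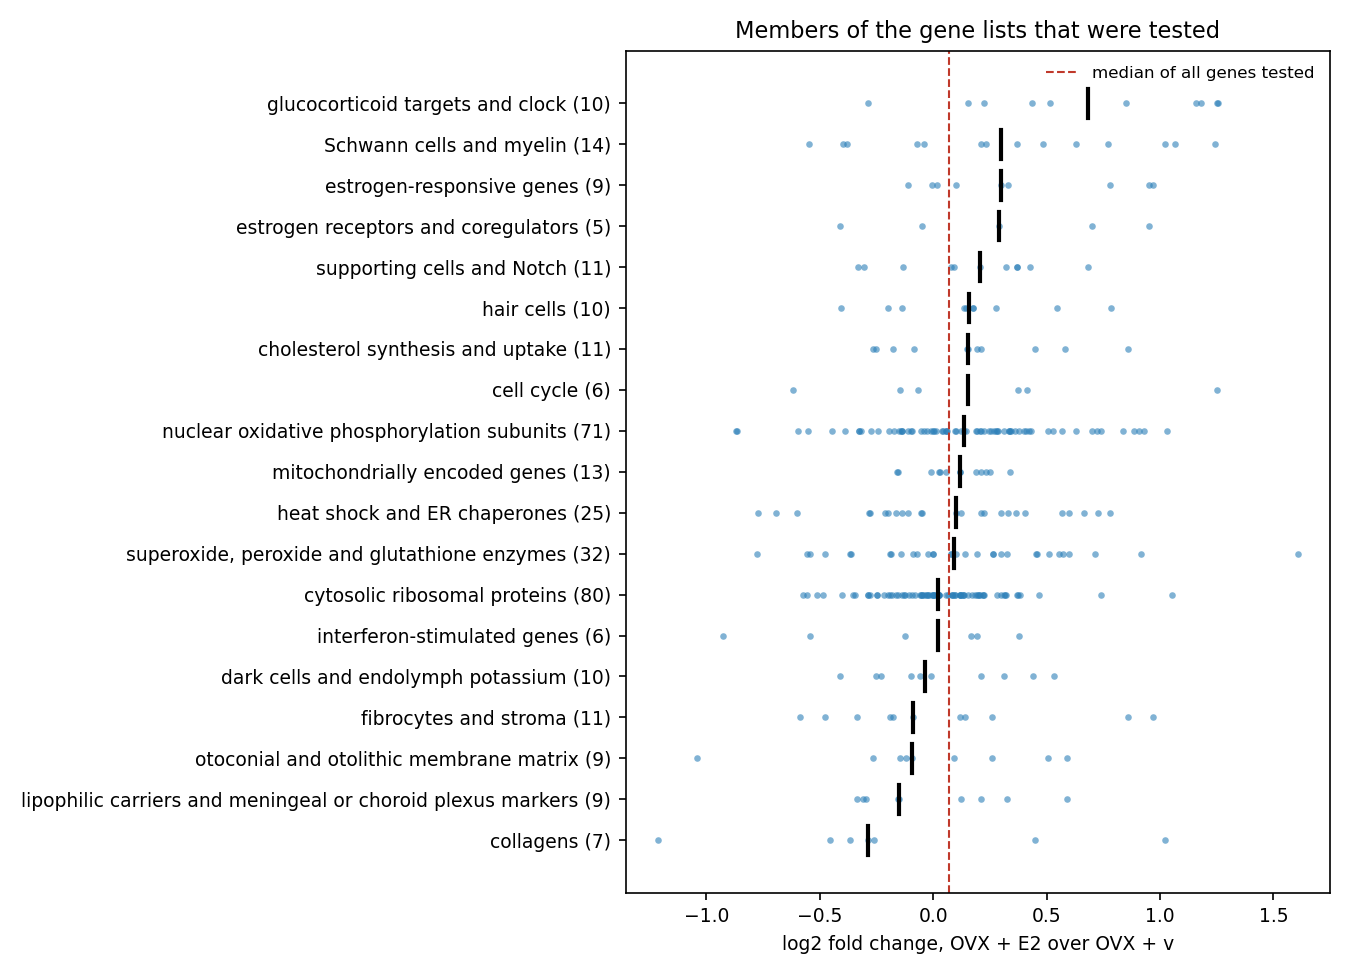
Log2 fold change of OVX + E2 over OVX + v for each tested member (points) of the gene lists with at least 5 tested members, without the cartilage genes gathered later; the number tested is in parentheses, the black bar is the median of the list and the dashed line the median of all 2601 genes, 0.07. The medians drawn run from -0.29 for collagens to 0.68 for glucocorticoid target and clock genes, and the members of each list lie on both sides of 0.

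Enzymes of superoxide, peroxide and glutathione defence were described because oxidative stress was a question of the study. Of 56 genes 32 were tested, 19 had higher and 13 lower values, 0 were called, and the median log2 fold change was 0.09. *Sod1*, the cytosolic superoxide dismutase, stood at 934 ± 200 in OVX + v and 934 ± 151 CPM in OVX + E2 (log2 0.00, SE 0.212), and *Gpx4*, which reduces lipid peroxides, at 277 ± 35.5 and 263 ± 80.9 CPM. *Mt2*, a metallothionein, stood at 315 ± 139 and 595 ± 205 CPM (log2 0.92, SE 0.293, edgeR adjusted p = 0.577). *Gclc*, the rate-limiting subunit of glutathione synthesis, had means of 29.3 ± 24.8 and 89.6 ± 74.0 CPM (log2 1.61, adjusted p = 0.728). *Gstm1* was the 1 member without overlap between the groups, on the lower side, where 0.384% of all genes tested were found.

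Genes of energy supply and protein synthesis lay near the median of all genes. Medians of the log2 fold change were 0.02 for 80 cytosolic ribosomal protein genes, 0.14 for 71 nuclear subunits of oxidative phosphorylation and 0.12 for the 13 mitochondrially encoded genes. Heat shock and endoplasmic reticulum chaperones (25 tested) had a median of 0.10, genes of cholesterol synthesis and uptake (11) 0.16, cell cycle genes (6) 0.15 and immediate early genes (3) 0.27. In each of these, 0 genes were called. Unadjusted edgeR p-values under 0.05 were found in both directions. *Rpl29*, *mt-Nd3* and the cell cycle gene *Cdkn1a* had higher values, beside 3.88% of all genes tested. *Rpl14*, *Ndufb9*, *Hspa4* and the cell cycle gene *Tuba1b* had lower values, beside 1.81%.

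Other cell types were represented by few tested genes, and 0 were called. Interferon-stimulated genes (6 tested, 3 with higher and 3 with lower values, median log2 fold change 0.02) included *Ifi27l2a*, with a log2 fold change of 0.20, and *Ifitm3*, which blocks viral entry, at 713 ± 291 in OVX + v and 375 ± 168 CPM in OVX + E2 (log2 -0.93, SE 0.300, edgeR adjusted p = 0.577). Macrophage and antigen presentation genes (4) had a median of -0.25 and neuronal genes (3) one of -0.15. The medians were -0.26 for osteoblasts (4), -0.37 for melanocytes (2), 0.40 for endothelial cells and pericytes (2), -0.27 for blood and marrow cells (2) and 0.60 for mucosal epithelium (2). Markers of osteoclasts and of skeletal muscle passed the filter in 0 cases. Summed over their lists, blood and marrow genes ranged from 847 to 2563 CPM in OVX + v and from 381 to 3893 CPM in OVX + E2, and macrophage genes from 2028 to 2802 and from 1962 to 2354 CPM.

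The genes that the study singled out were chosen by it on these same libraries, so their values are no independent evidence of a direction. None of them passed the filter. *Amd1*, the rate-limiting decarboxylase of polyamine synthesis, was added as the near-identical copy of *Amd2* and passed, at 1219 ± 401 CPM in OVX + v and 1220 ± 292 CPM in OVX + E2 (log2 fold change 0.00, SE 0.226). *Gstp2*, a glutathione transferase of the pi class, stood at 0, 0, 12.5, 0 and 0 CPM in OVX + v and at 23.9, 326, 265, 0 and 166 CPM in OVX + E2. Replicate 14 of OVX + E2 had no count, so the groups overlapped. Its near-identical copy *Gstp1* stood at 319, 383, 545, 362 and 519 CPM in OVX + v and at 314, 0, 0, 304 and 301 CPM in OVX + E2. Replicates 12 and 13, without a count of *Gstp1*, were the highest for *Gstp2*. The windows of 63 bases at the transcript end were shared with other genes for 100% of *Gstp2* and 90.8% of *Gstp1*, so the split of reads between the copies is uncertain. For the same reason *Amd2*, with 95.6% of its windows shared, is uncertain. It stood at 24.9, 0, 618, 0 and 0 CPM in OVX + v and reached 4.01 CPM in 1 OVX + E2 library.

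*Cog5*, a subunit of the Golgi tethering complex, stood at 190, 95.4, 264, 19.8 and 79.4 CPM in OVX + v and was at 0 in all 5 OVX + E2 libraries. A floor of 3 counts per library stood at 1.99 to 2.67 CPM in OVX + E2. The OVX + v mean of *Cog5*, 129.7 ± 96.8 CPM, was 56.7 times the mean floor. This holds for the means only, because the lowest OVX + v library, at 19.8 CPM, lay much nearer the floor. The OVX + RAL and sham + v means of *Cog5* were 99.2 ± 58.9 and 28.8 ± 29.3 CPM. *Slc35b1*, an endoplasmic reticulum nucleotide transporter, stood at 35.5, 101, 89.6, 156 and 82.9 CPM in OVX + v and at 5.31, 26.4, 0, 26.7 and 6.31 CPM in OVX + E2, without overlap. *Wdr41* and *Mettl16* also lay lower in every OVX + E2 library, neither above 2.1 CPM there, and *Sra1* overlapped. *Stard8* held 2 counts in its lowest OVX + v library and 1 in its highest OVX + E2 library, both under the floor of 3 counts. *Orc8*, as the study prints it, was not analysed here. The list also held *Orc2*, which the study does not name, at 8.10, 60.2, 17.6, 82.7 and 29.96 CPM in OVX + v and with 1 count in 1 of the OVX + E2 libraries. Beside *Cog5*, the genes with at least 10 counts in each OVX + v library and none in any OVX + E2 library were *Rexo4*, *Hars2*, *Gnpda2*, *Mospd2*, *Zfp143*, *Tango2*, *Dus3l*, *Brwd3* and *Prrx2*. They make up 10 of 4954 genes (0.202%), in libraries that held fewer genes in all, and none was tested in the comparison.

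Estradiol and raloxifene were also compared with each other, at the different doses given. Of the 2601 genes 0 were called (edgeR quasi-likelihood test), with 165 at an unadjusted p under 0.05. *Ifitm3* stood at 375 ± 168 CPM with estradiol and 1023 ± 358 CPM with raloxifene (log2 fold change -1.45, SE 0.312, edgeR adjusted p = 0.0726). *Gm10800* had the same adjusted p (log2 1.95, SE 0.429). *Mbp* stood at 1000 ± 344 and 470 ± 77.9 CPM (log2 1.09, SE 0.269, edgeR adjusted p = 0.214). For *Col27a1* the difference was -0.10 (SE 0.321), and for *Glul* 0.22 (SE 0.190).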

How the data were processed

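The authors trimmed the QuantSeq reads and mapped them by default settings to GRCm39.105. Reads were counted per gene in CLC Genomics Workbench, whose version, and what its defaults do with multiply mapping reads, are not given in the sources used here. The deposited total counts are raw read counts without molecular identifiers, so a count of 0 and its floor cover counting error only. The other deposited columns (normalized values and the authors' own fold changes and p-values) were not used. Samples were grouped by their labels. CPM was computed from column totals. Genes with at least 10 counts in each of the 10 libraries were tested with edgeR 4.0.16 (glmQLFit, glmQLFTest) in R 4.3.3, with the total as library size, no TMM factor and a Benjamini-Hochberg threshold of 0.05. SE is the log2 fold change over the square root of F. The common dispersion was 0.260. Exact permutation tests used scipy 1.17.1 over 252 groupings. Alternatives used TMM, DESeq2 1.42.0, limma 3.58.1 with pseudocounts of 1 and 0.1, other filters, all 4 groups, libraries left out and, chosen after seeing the data, thinned counts and a fit without replicates 13 and 14. The code was tested on simulated data. Named by rule were called genes, up to 8 genes in each direction with the largest fold change among those without overlap, list members that were called or without overlap, the most abundant list members and the genes the study names. *Glul*, *Cnmd*, *Tmco1* and the members named for their p or function were added once values had been looked at. The members and lists were chosen with earlier results of these data known. Sequences were read from GRCm39 with GENCODE vM39.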

Additional observations from a re-analysis of the deposited data

Results flagged for a closer look

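In 4 cases a single library stood apart from the others of its group by Dixon's test (critical value 0.71 for 5 values), among 52 groups of 5 values examined, where chance gives about 2.6. All were OVX + E2 libraries. *Glis2* stood at 160.3 CPM in replicate 13, against 52.5 to 63.4 CPM in the other 4. *Rpl29* stood at 247.7 CPM in replicate 13, above the rest. *Snx3* was lowest there, at 170.7 CPM. *Gstm1* was lowest in replicate 12, at 117.1 CPM. *Glis2*, *Rpl29*, *Snx3* and *Gstm1* are 4 of the 19 genes without overlap, and in each the library that stood apart lay on the side away from OVX + v. A library apart on the other side would tend to make the groups overlap. The side was therefore largely set by the choice of these genes.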

How the results depend on the processing

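The number of genes called was 1 with TMM factors, 1 with thinned counts and 1 with the default filter of edgeR, where the gene was *Cog5* (lower) instead of *Gm10800*. It was 0 with DESeq2, with limma at either pseudocount, with the robust form of glmQLFit, with all 4 groups in 1 fit and without replicates 13 and 14. It was 8 (2 higher, 6 lower) with at least 10 counts summed over the libraries, of 13695 genes, and 8 with no filter, of 14657. These were *Ptgds*, *Cog5*, *S100b*, *Gstp2*, *Amd2*, *Gm10800*, *Ttr* and *Apod*. Leaving out 1 library gave 0 to 2 calls. Over 21 alternatives the adjusted p of *Gm10800* ran from 1.165e-05 to 0.558 and its log2 fold change from 1.28 to 1.87, with 8 under 0.05. Genes without overlap numbered 19, 20 with TMM factors, 114 (22 higher, 92 lower) with the summed filter, and 32 to 60 with 1 library left out, where fewer values need to be separated. The comparison of estradiol with raloxifene gave 0 calls with TMM factors too. No paired analysis was possible because the groups share no replicate numbers. The chosen filter limits the test to genes of at least 10 counts in each library. The cause of the other shifts was not tested.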

Other observations

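Cartilage genes were gathered after the values of *Col27a1* and *Cnmd* had been seen, so no test is given for them. Of 26 genes 14 were tested, 10 with lower and 4 with higher values in OVX + E2 (median log2 fold change -0.39), and 0 were called. *Chad*, chondroadherin, stood at 217, 236, 210, 267 and 166 CPM in OVX + v and at 106, 60.4, 168, 139 and 21.7 CPM in OVX + E2, with an overlap at replicate 13. *Ucma*, a matrix protein of growth cartilage, stood at 1738 ± 390 and 1284 ± 138 CPM (SD, n = 5). Others went the opposite way, among them *Col9a1* (62.2 ± 19.5 and 126 ± 77.2 CPM) and *Mia* (872 ± 209 and 1159 ± 515 CPM). *Acan* and *Col2a1*, defining genes of cartilage, did not pass the filter, and both had means under 50 CPM in either group. Summed over the list, OVX + v libraries held 15060 to 19350 CPM and OVX + E2 libraries 11630 to 15130 CPM, which overlap. The mean sums were 17320 and 13140 CPM. *S100b*, also a member of the Schwann cell list, alone held 9141 and 6255 CPM of these. The cartilage sum thus depends largely on that gene.

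*Gm10801*, a predicted gene named next to *Gm10800*, did not pass the filter. It stood at 78.5, 18.8, 31.7, 34.2 and 60.6 CPM in OVX + v and at 60.4, 55.1, 295, 121 and 5.61 CPM in OVX + E2.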
